A study of Mus musculus with 16 samples.

Results

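The comparison described here sets Lung-LMP1 tumour organoids (n = 3) against LMP1 tumour organoids (n = 2), 5 of the 16 mouse libraries in 6 groups of the series. Its members were taken by sample title within genotype TMPL, with no use of measured values. Organoids are 3-dimensional cultures, here grown from tumours, and polyA RNA of each was sequenced. Both groups come from C57BL/6 mice and carry the same alleles and agents, Trp53-/-, Myc, sgCdkn2a and LMP1, a latent membrane protein of Epstein-Barr virus, so none of these differs by label between them. The other tumour organoids, Lung-Ctr (n = 2) and Ctr (n = 3), are of genotype TMP, which is Trp53-/-, Myc and sgCdkn2a with no LMP1, and they enter only the shared estimate of spread and 1 comparison near the end. Tumours arose in recipient mice given cells by orthotopic transplantation into the nasopharynx, per the labels. The design text speaks of primary and metastasized organoids of both genotypes, but the sample descriptions call all TMPL libraries metastasis and all TMP libraries primary. "Lung" is therefore used only as the prefix of a title, and no site of growth is read from it. Promoters driving Myc or LMP1, ages, sexes and clone or animal numbers were found in none of the labels. Nothing in the labels says that replicates of a group came from separate animals or cultures, and the p-values given here therefore describe spread among these libraries, possibly of technical origin.

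Nasopharyngeal carcinoma is a tumour of the epithelium lining the upper throat and often carries Epstein-Barr virus. LMP1 acts like a receptor that is always switched on, and through TRAF and TRADD adaptors it feeds the NF-kB, MAP kinase and JAK/STAT pathways. Epithelial cells are held together by cadherin junctions, tight junctions and desmosomes and anchored by hemidesmosomes to laminin-332. In epithelial to mesenchymal transition (EMT), transcription factors of the SNAI, ZEB and TWIST families repress such genes while vimentin, fibronectin and fibrillar collagens are switched on, and factors of the GRHL, OVOL and ESRP families act on the epithelial side.

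Total counts per library were 14767904, 16338921 and 12535166 in Lung-LMP1 organoids and 18067227 and 14779383 in LMP1 organoids, and 3 counts in 1 tumour library correspond to 0.166 to 0.239 CPM. CPM are counts scaled to a common library size with TMM (trimmed mean of M-values) factors. Levels are not divided by transcript length, so they are compared between libraries and not between genes. In bulk RNA, fewer cells of a type and less RNA per cell cannot be told apart. Log2 CPM of the 2 LMP1 libraries correlated at Pearson r = 0.987 across the 13460 genes tested, and those of Lung-LMP1 at 0.946 to 0.975, while pairs across the groups gave 0.840 to 0.882 (genes are not independent replicates). The 2 LMP1 libraries still differed by more than counting noise, with a mean chi-square of 15.035 per gene on 1 degree of freedom, against 35.3 to 102 for pairs of Lung-LMP1 libraries, so they were kept as 2 libraries. On the first principal component of the 10 tumour libraries, which held 56.3% of the variance of the 1000 most variable genes, Lung-LMP1 organoids lay at -36.2, -35.0 and -33.4 and LMP1 organoids at 97.8 and 87.2. The 5 TMP libraries lay between -37.9 and 23.2, Ctr replicate 2 highest among them, so Lung-LMP1 organoids sat among TMP organoids and LMP1 organoids stood apart.

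The engineered genes cannot check the labels here, because both groups carry the same changes and a count per gene does not show whether a deleted part is absent. Myc, the transgenic oncogene, had 1299, 611 and 1102 CPM in Lung-LMP1 organoids and 1912 and 1771 CPM in LMP1 organoids, log2 fold change -0.88 ± 0.28 (SE), adjusted p = 0.0827. All 3 Lung-LMP1 libraries were below both LMP1 libraries, replicate 2 lowest, but the difference did not pass the test. Trp53, the deleted tumour suppressor, had 87.8, 105 and 109.95 CPM in Lung-LMP1 organoids and 99.9 and 105 CPM in LMP1 organoids (adjusted p = 0.967), with transcripts of the locus counted in all 5 libraries. Cdkn2a, targeted at the DNA level by a guide, had 177, 306 and 193 CPM in Lung-LMP1 organoids and 364 and 319 CPM in LMP1 organoids (adjusted p = 0.391). The viral LMP1 transcript is not among the genes of the tables used here, so its level was not analysed.

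Of 13460 genes tested with edgeR's quasi-likelihood test, 1361 (10.1%) passed a Benjamini-Hochberg adjusted p of 0.05. There were 830 (6.17%) that rose and 531 (3.95%) that fell in Lung-LMP1 organoids, with a median fold change of 4.597 among genes that rose and 4.55 among those that fell. Of the called genes, 274 rose and 179 fell by more than 10-fold. In all 1361 the ranges of the groups did not overlap, against 53.8% of all genes tested. The median log2 fold change of all genes was 0.01, a value that TMM scaling holds near 0. The number of calls rests strongly on single libraries. It was 33 without LMP1 replicate 1, 154 without LMP1 replicate 2, 483 without Lung-LMP1 replicate 3, 674 without Lung-LMP1 replicate 2 and 949 without Lung-LMP1 replicate 1, and 33 calls (28 up and 5 down) were kept in all 5 of these fits. Leaving out any 1 of the 5 TMP libraries gave 1336 to 1756 calls. Of the 56 gene lists used, 11 of them marker lists, most but not all are described below. In these lists most calls were lost without LMP1 replicate 1 or without LMP1 replicate 2. In the plot of fold change by mean level, called genes of both directions lie at low and at high levels.

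**Figure D1:**
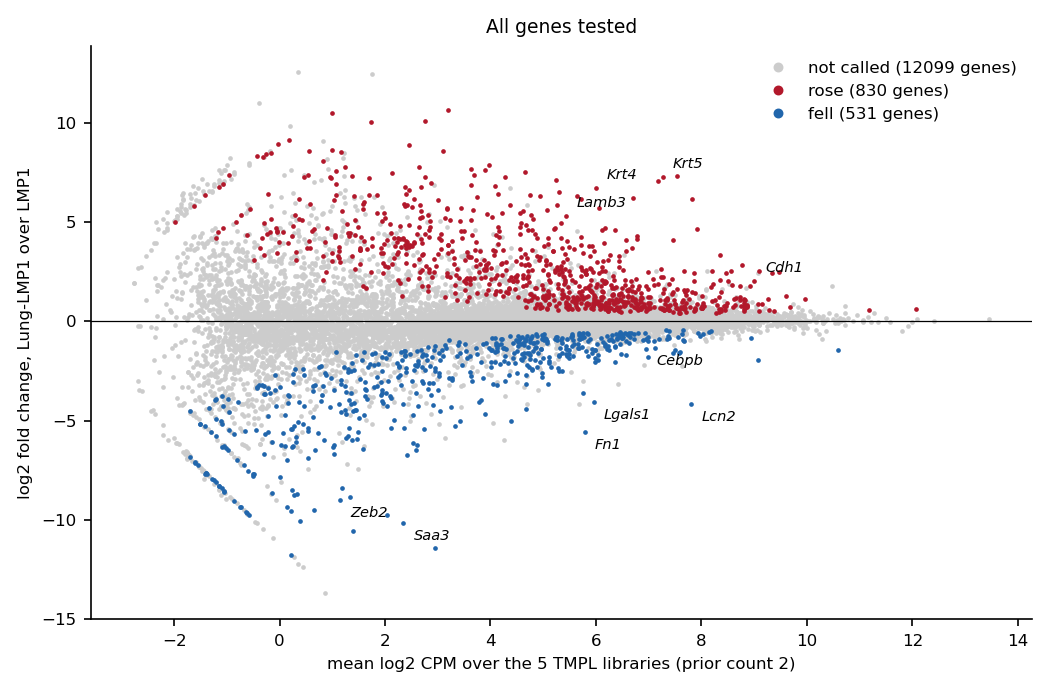
Log2 fold change of Lung-LMP1 over LMP1 organoids (vertical axis) by mean log2 CPM over the 5 TMPL libraries (horizontal axis) for the 13460 genes tested. Red points are the 830 genes that rose, blue points the 531 that fell and grey points those not called, and Krt4, Lamb3 and Krt5 lie above 0 while Lgals1, Zeb2 and Saa3 lie below.

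Many transcription factors and splicing regulators of epithelial identity rose. Of 31 listed, 28 passed the low-count filter, and 13 of these rose (46.4%, against 6.17% of all genes tested), none fell and 15 were not called. Their median log2 fold change was 2.86, against 0.01 over all genes tested. Grhl2, a grainyhead factor that holds junction genes on (chromosome 15, 37233036 to 37363569 in GRCm38), had 126, 109.98 and 108 CPM in Lung-LMP1 organoids and 6.86 and 11.01 CPM in LMP1 organoids, a 12.9-fold rise (log2 fold change 3.68 ± 0.36 (SE), adjusted p = 0.00208). Its relative Grhl3, needed for closure of epithelial sheets in mouse embryos, had 18.4, 26.8 and 14.2 CPM in Lung-LMP1 organoids and 1.06 and 1.17 CPM in LMP1 organoids and rose 17.7-fold (adjusted p = 0.00198). For both genes the lowest Lung-LMP1 library was far above the higher LMP1 library. Esrp1 and Esrp2 encode the RNA-binding proteins that set epithelial splicing. Esrp1 had 374, 449.7 and 425 CPM in Lung-LMP1 organoids and 52.9 and 92.01 CPM in LMP1 organoids (5.75-fold, adjusted p = 0.00483), and Esrp2 had 107, 66.2 and 53.4 CPM in Lung-LMP1 organoids and 7.39 and 13.7 CPM in LMP1 organoids (7.15-fold, adjusted p = 0.00811). Both were detected in LMP1 organoids at a lower level.

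Trp63 encodes p63, the master factor of basal stratified epithelium (chromosome 16, 25683763 to 25892102), and had 235, 132 and 161 CPM in Lung-LMP1 organoids and 2.48 and 1.89 CPM in LMP1 organoids, a 79.9-fold rise (log2 fold change 6.32 ± 1.11 (SE), adjusted p = 0.0121). Ovol1 and Ovol2 encode zinc finger repressors of mesenchymal genes. Ovol1 had 29.3, 31.5 and 33.03 CPM in Lung-LMP1 organoids and 2.75 and 5.80 CPM in LMP1 organoids (7.33-fold, adjusted p = 0.00957), and Ovol2 had 8.72, 8.07 and 8.24 CPM in Lung-LMP1 organoids and 0.106 and 0.456 CPM in LMP1 organoids, low in absolute terms (adjusted p = 0.0159). The groups did not overlap for any of these 3 genes. Pitx1, a homeobox factor of the oral and first pharyngeal arch region, had 257, 75.8 and 177 CPM in Lung-LMP1 organoids and 2.48 and 4.49 CPM in LMP1 organoids (48.9-fold, adjusted p = 0.00765), with replicate 2 lowest in Lung-LMP1. Foxa1, a pioneer factor of endodermal epithelium, had 129, 287 and 128 CPM in Lung-LMP1 organoids and 11.8 and 14.3 CPM in LMP1 organoids (13.9-fold, adjusted p = 0.0069), with replicate 2 highest. Sox15 and Sox21 rose 60.3-fold and 7.12-fold, and Klf5, a factor of proliferating basal cells, rose 3.09-fold (adjusted p = 0.0193). Members that did not pass include Sox2, which had 101, 122 and 86.5 CPM in Lung-LMP1 organoids and 70.1 and 60.3 CPM in LMP1 organoids, and Ehf, which had 155, 167 and 132 CPM in Lung-LMP1 organoids and 105 and 99.3 CPM in LMP1 organoids (adjusted p = 0.301 and 0.345). Sox9, a progenitor factor, ran the other way with 6.61, 20.7 and 11.2 CPM in Lung-LMP1 organoids and 102 and 71.5 CPM in LMP1 organoids, but was not called (adjusted p = 0.066). The list kept 12 to 13 called members without any single Lung-LMP1 library, 6 without LMP1 replicate 2 and 3 without LMP1 replicate 1.

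**Figure D2:**
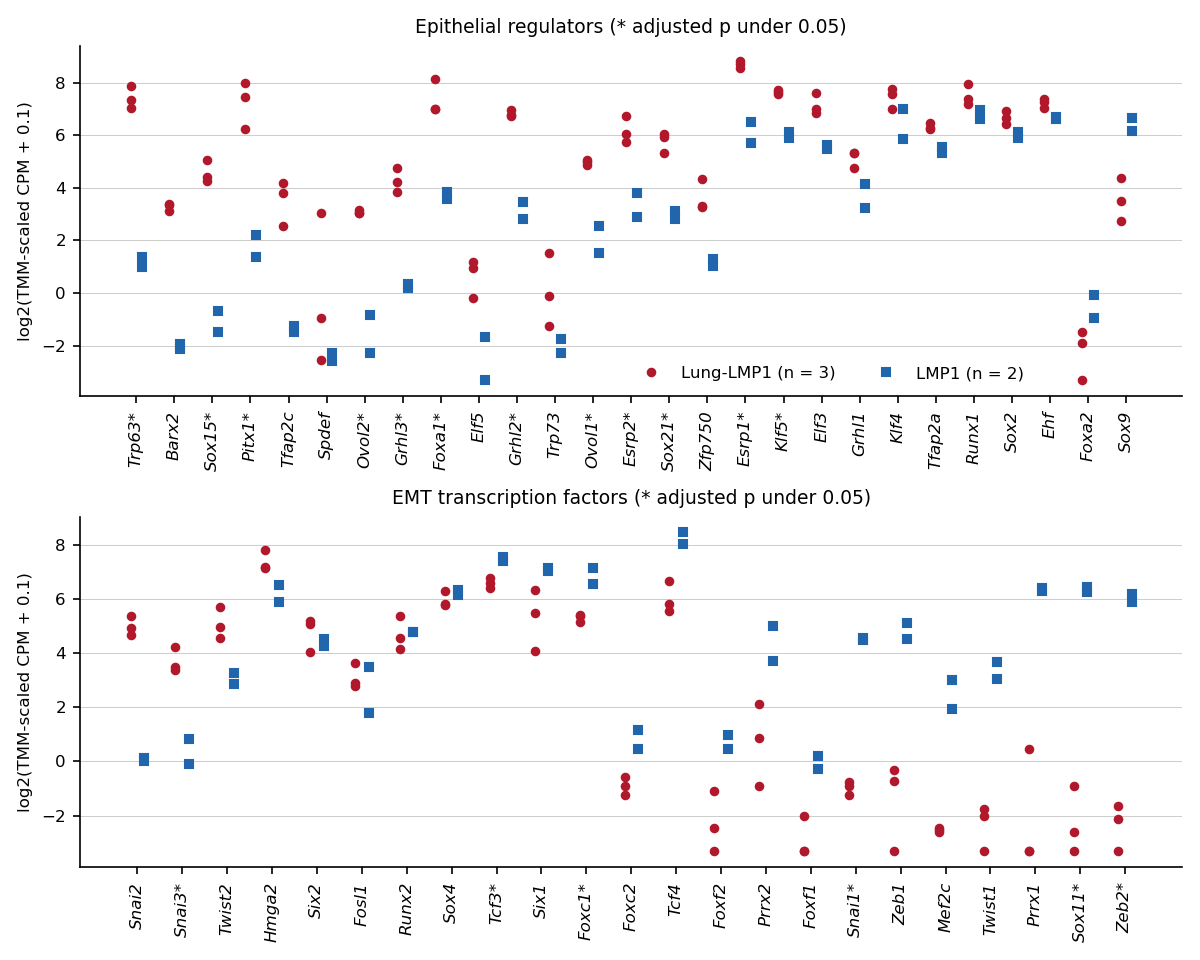
Level in each library, as log2 of TMM-scaled CPM plus 0.1, of 27 of the 28 tested epithelial regulators (top) and 23 tested EMT transcription factors (bottom), ordered by fold change. Red circles are Lung-LMP1 libraries and blue squares LMP1 libraries, and asterisks mark calls: Trp63 and Grhl2 stand higher in Lung-LMP1, Zeb2, Sox11 and Snai1 stand lower, and Snai3 stands higher.

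The transcription factors of EMT did not move as 1 block. Of 28 listed, 23 were tested, and 5 fell, 1 rose and 17 were not called, with a median log2 fold change of -1.93. Thus 21.7% fell and 4.35% rose, against 3.95% and 6.17% of all genes tested. Zeb2, another Cdh1 repressor (chromosome 2, 44983632 to 45117395), had 0.218, 0.128 and 0 CPM in Lung-LMP1 organoids and 72.1 and 59.2 CPM in LMP1 organoids (log2 fold change -9.005 ± 2.05 (SE), adjusted p = 0.0293). Snai1, a repressor of Cdh1 (chromosome 2, 167538195 to 167542814), had 0.436, 0.32 and 0.494 CPM in Lung-LMP1 organoids and 22.3 and 23.6 CPM in LMP1 organoids (54.4-fold lower, adjusted p = 0.026). Sox11, a neural and mesenchymal progenitor factor, had 0.436, 0.0641 and 0 CPM in Lung-LMP1 organoids and 86.3 and 76.4 CPM in LMP1 organoids (adjusted p = 0.0452). In Lung-LMP1 organoids these 3 genes were at or near the floor of detection, whereas each was plain in both LMP1 libraries. Foxc1, a mesenchymal forkhead factor, fell 2.97-fold and Tcf3, the E2A protein, fell 1.85-fold (adjusted p = 0.00391 and 0.0161), and both stayed well expressed in both groups. Prrx1, Zeb1 and Twist1 were similarly near 0 in Lung-LMP1 without passing the test. Prrx1 had 0, 1.28 and 0 CPM in Lung-LMP1 organoids and 77.9 and 84.98 CPM in LMP1 organoids (adjusted p = 0.0732), Zeb1 had 0.509, 0.705 and 0 CPM in Lung-LMP1 organoids and 34.6 and 23.1 CPM in LMP1 organoids (adjusted p = 0.109) and Twist1 had 0.145, 0.192 and 0 CPM in Lung-LMP1 organoids and 12.6 and 8.27 CPM in LMP1 organoids (adjusted p = 0.0773).

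Members of the same families ran the opposite way. Snai3, the third SNAI gene, rose 10.5-fold, with 18.5, 11.3 and 10.4 CPM in Lung-LMP1 organoids and 0.845 and 1.69 CPM in LMP1 organoids (adjusted p = 0.00533). Snai2, which in skin is also a basal keratinocyte factor, had 41.9, 25.2 and 30.6 CPM in Lung-LMP1 organoids and 1.003 and 0.912 CPM in LMP1 organoids, ranges far apart but not called (adjusted p = 0.0567). Twist2 had 51.7, 23.4 and 31.5 CPM in Lung-LMP1 organoids and 9.50 and 7.23 CPM in LMP1 organoids (adjusted p = 0.0708), also higher in every Lung-LMP1 library without a call. Six2, Sox4 and Runx2 had log2 fold changes of 0.47, -0.25 and -0.01 and adjusted p of 0.592, 0.646 and 0.99. A fit of the 5 TMPL libraries alone called more genes of every kind, 2682 of 12915 tested, and among EMT factors 12 lower and 4 higher. When the spread was estimated from the 5 TMPL libraries alone, 16 of the 23 tested members passed, and without LMP1 replicate 1 none did, 2 passed without LMP1 replicate 2, 2 without Lung-LMP1 replicate 2, 2 without Lung-LMP1 replicate 3 and 3 without Lung-LMP1 replicate 1.

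Most tested genes of cell to cell adhesion rose. In the adherens junction and adhesion list, 24 of 29 genes were tested, 14 rose, 1 fell and 9 were not called (median log2 fold change 1.12). The share that rose was 58.3%, against 6.17% of all genes tested, and the share that fell 4.17%, against 3.95%. Cdh1, which encodes E-cadherin (chromosome 8, 106603351 to 106670246), had 998, 1004 and 794 CPM in Lung-LMP1 organoids and 157 and 289.7 CPM in LMP1 organoids, a 4.18-fold rise (adjusted p = 0.00831). Epcam, another epithelial adhesion molecule, had 663, 1421 and 942 CPM in Lung-LMP1 organoids and 103 and 177 CPM in LMP1 organoids (7.20-fold, adjusted p = 0.0178). Cdh1 and Epcam were thus still abundant in LMP1 organoids. Cdh3, the P-cadherin of basal cells, had 226, 121 and 136 CPM in Lung-LMP1 organoids and 1.11 and 2.87 CPM in LMP1 organoids (81.8-fold, adjusted p = 0.0153). Jup, plakoglobin, rose 4.16-fold and the alpha-catenin gene Ctnna1 rose 1.82-fold (adjusted p = 0.00979 and 0.0105). Cdh2, N-cadherin, was the 1 member that fell. It had 0, 0.0641 and 0 CPM in Lung-LMP1 organoids and 2.80 and 2.54 CPM in LMP1 organoids, from 1 count over all Lung-LMP1 libraries, and was higher in LMP1 organoids by 111 times (95% counting interval 19.5 to 4445).

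Tight junction genes followed, with 9 of 24 tested (28 listed) rising (37.5%, against 6.17% of all genes tested) and none falling (median log2 fold change 1.37). Cldn7, a claudin of most epithelia, had 187, 342 and 258 CPM in Lung-LMP1 organoids and 17.2 and 27.5 CPM in LMP1 organoids (11.7-fold, adjusted p = 0.00483). Cldn4 had 186, 244 and 189 CPM in Lung-LMP1 organoids and 18.1 and 31.9 CPM in LMP1 organoids (8.27-fold, adjusted p = 0.00731). Crb3, the Crumbs polarity protein, had 18.2, 23.4 and 19.4 CPM in Lung-LMP1 organoids and 1.27 and 2.60 CPM in LMP1 organoids (10.5-fold, adjusted p = 0.0158), and the polarity gene Llgl2 rose 3.70-fold. Ocln, which encodes occludin, had 59.4, 60.6 and 53.2 CPM in Lung-LMP1 organoids and 22.6 and 33.01 CPM in LMP1 organoids and missed the threshold (adjusted p = 0.0765). No member was called without LMP1 replicate 1 and 2 were without LMP1 replicate 2, against 5 to 7 without any single Lung-LMP1 library. Among desmosome genes 12 of 17 were tested and 8 rose (66.7%, against 6.17% of all genes tested), none fell (median 2.70). Pkp1, a plakophilin of the desmosome plaque, had 204, 237 and 200.5 CPM in Lung-LMP1 organoids and 11.9 and 15.8 CPM in LMP1 organoids (15.4-fold, adjusted p = 0.00376). Its relative Pkp3 had 115, 116 and 98.996 CPM in Lung-LMP1 organoids and 7.60 and 13.5 CPM in LMP1 organoids (10.5-fold, adjusted p = 0.00304). Dsp, desmoplakin, had 891, 663 and 761.7 CPM in Lung-LMP1 organoids and 112 and 155 CPM in LMP1 organoids (5.77-fold, adjusted p = 0.0106). The desmoglein Dsg3 had 192, 80.9 and 153 CPM in Lung-LMP1 organoids and 0.211 and 1.04 CPM in LMP1 organoids (233-fold, adjusted p = 0.00831), so it was close to its floor in LMP1 organoids while Dsp was not.

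A pair of trafficking genes of polarized epithelium, Ap1m2 and Rab25, had adjusted p-values among the 12 smallest of genes that rose at a mean log2 CPM of at least 3. Ap1m2, the epithelial clathrin adaptor subunit that sorts proteins to the basolateral side (chromosome 9, 21294275 to 21312337), had 90.8, 102 and 90.7 CPM in Lung-LMP1 organoids and 2.75 and 4.88 CPM in LMP1 organoids (24.8-fold, adjusted p = 0.000566). Rab25, a small GTPase of recycling endosomes (chromosome 3, 88542029 to 88548300), had 179.9, 160.4 and 170.2 CPM in Lung-LMP1 organoids and 9.24 and 14.8 CPM in LMP1 organoids (14.1-fold, adjusted p = 0.000942). In each case the 3 Lung-LMP1 values lay within a narrow band above both LMP1 values. SNAI and ZEB proteins are known to bind the E-box CAGGTG, which reads CACCTG on the other strand, so the promoters of 4 genes that rose are shown, each 300 bases of RefSeq sequence on GRCm38.p6 from 250 before to 50 after a start site, 5′ to 3′ on the strand of the gene, with CAGGTG or CACCTG in capitals. They were picked among the genes described for holding the motif, after their values were seen. The windows are chr9:21312284-21312583, minus strand for Ap1m2, chr3:88548230-88548529, minus strand for Rab25, chr11:69965171-69965470, plus strand for Cldn7 and chr1:193301993-193302292, plus strand for Lamb3.
Ap1m2: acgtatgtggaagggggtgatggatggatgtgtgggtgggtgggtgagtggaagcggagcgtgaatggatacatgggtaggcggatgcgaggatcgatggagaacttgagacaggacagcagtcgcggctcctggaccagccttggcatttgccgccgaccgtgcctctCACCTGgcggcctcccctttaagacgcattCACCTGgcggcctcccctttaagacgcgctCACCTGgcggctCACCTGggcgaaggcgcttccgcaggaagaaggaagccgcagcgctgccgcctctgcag
Rab25: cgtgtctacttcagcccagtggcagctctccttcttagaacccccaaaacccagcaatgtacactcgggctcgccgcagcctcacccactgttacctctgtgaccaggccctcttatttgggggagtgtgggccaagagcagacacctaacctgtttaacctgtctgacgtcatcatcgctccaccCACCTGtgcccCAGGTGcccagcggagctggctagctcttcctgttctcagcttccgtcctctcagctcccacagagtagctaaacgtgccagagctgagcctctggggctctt
Cldn7: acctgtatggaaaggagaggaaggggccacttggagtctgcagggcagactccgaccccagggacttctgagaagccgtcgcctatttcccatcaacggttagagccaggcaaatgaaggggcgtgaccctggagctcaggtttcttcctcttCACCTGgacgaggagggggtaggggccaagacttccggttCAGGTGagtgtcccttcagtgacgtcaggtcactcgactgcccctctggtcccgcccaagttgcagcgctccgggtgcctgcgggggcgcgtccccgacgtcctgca
Lamb3: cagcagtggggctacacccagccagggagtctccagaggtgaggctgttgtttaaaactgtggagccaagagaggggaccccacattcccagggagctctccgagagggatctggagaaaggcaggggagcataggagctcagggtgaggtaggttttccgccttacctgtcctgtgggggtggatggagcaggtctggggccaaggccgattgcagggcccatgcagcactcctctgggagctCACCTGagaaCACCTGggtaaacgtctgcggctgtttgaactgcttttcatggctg
The Ap1m2 window holds 4 matches, whose first bases lie 81, 51, 21 and 9 bases before the start. The Rab25 window holds 2 (64 and 53 bases before), the Cldn7 window 2 (97 and 57 bases before) and the Lamb3 window 2, at 6 bases before and base 5 after the start. Second start sites of Cldn7 and Lamb3 have windows with 0 matches. Among all 27025 genes with a promoter listed by RefSeq, 22.6% hold this motif on either strand, and 21.4% of the 10171 that were tested. By list, 7 of 15 promoters (46.7%) of epithelial regulators held it, 12 of 18 (66.7%) of tight junction genes, 5 of 9 (55.6%) of laminin-332 and hemidesmosome genes, 2 of 2 of desmosome genes, 9 of 27 (33.3%) of cornified envelope genes, 3 of 10 of adherens and adhesion genes and 1 of 15 (6.67%) of EMT factors. The share was 34.7% of 602 genes that rose (209 genes) and 22.2% of 397 that fell (88 genes). The grainyhead motif AACCGGTT was in 0.174% of all promoters, 0.315% of those tested, 0.332% of genes that rose (2 genes) and 0.252% of genes that fell (1 gene). Neither motif contains the other. These are descriptions of letters in short windows and no test was made of them.

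Some genes of anchorage to the basement membrane rose too, 42.9% of the list that follows against 6.17% of all genes tested. All 14 genes of laminin-332, hemidesmosomes and their integrins were tested, 6 rose and none fell (median log2 fold change 2.43), and 6 passed without any single Lung-LMP1 library, 4 without LMP1 replicate 2 and 2 without LMP1 replicate 1. Lamb3 and Lama3 encode chains of laminin-332. Lamb3 (chromosome 1, 193207699 to 193343878) had 174, 236 and 164 CPM in Lung-LMP1 organoids and 3.54 and 5.99 CPM in LMP1 organoids (40.3-fold, adjusted p = 0.00175). Lama3 had 121, 84.2 and 111 CPM in Lung-LMP1 organoids and 2.32 and 2.41 CPM in LMP1 organoids (44.5-fold, adjusted p = 0.0138). Both chains were therefore low in both LMP1 libraries. Their receptor, integrin alpha 6 beta 4, followed. Itgb4 had 538, 552 and 565 CPM in Lung-LMP1 organoids and 30.9 and 32.4 CPM in LMP1 organoids (17.4-fold, adjusted p = 0.00896), and Itga6 had 597, 743 and 777 CPM in Lung-LMP1 organoids and 111 and 148 CPM in LMP1 organoids (5.45-fold, adjusted p = 0.00309). Itga3, the partner of beta 1 in binding laminin-332, had 1293, 1574 and 1022 CPM in Lung-LMP1 organoids and 196 and 289 CPM in LMP1 organoids (5.35-fold, adjusted p = 0.00211). Col17a1, the hemidesmosome collagen, had 195, 88.01 and 123 CPM in Lung-LMP1 organoids and 0.898 and 1.63 CPM in LMP1 organoids, not called (adjusted p = 0.072). Among other integrins 13 of 17 were tested, and 15.4% rose and 30.8% fell, against 6.17% and 3.95% of all genes tested. Itgb6 and Itgav, which pair to bind latent TGF-beta, rose 18.7-fold and 1.66-fold (adjusted p = 0.00419 and 0.0425). Itga5, Itga7, Itgb5 and Itga2b fell, including the fibronectin receptor chain Itga5 with 2.54, 3.52 and 6.01 CPM in Lung-LMP1 organoids and 26.1 and 22.2 CPM in LMP1 organoids (6.004-fold lower, adjusted p = 0.0333).

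Keratins of stratified epithelium rose by large folds. Krt5 and Krt14 form the paired filaments of basal cells. Krt5 (chromosome 15, 101707070 to 101712898) had 1889.7, 597 and 1392 CPM in Lung-LMP1 organoids and 4.33 and 12.2 CPM in LMP1 organoids (157-fold, adjusted p = 0.043). Krt14 (chromosome 11, 100203162 to 100207548) had 891, 412 and 551 CPM in Lung-LMP1 organoids and 4.70 and 12.05 CPM in LMP1 organoids (74.1-fold, adjusted p = 0.0203). Within Lung-LMP1 organoids replicate 2 was lowest for both, but still far above both LMP1 libraries. Krt15, the third basal keratin of the list, had 113, 135 and 25.6 CPM in Lung-LMP1 organoids and 0.317 and 0.13 CPM in LMP1 organoids (adjusted p = 0.0413). All 3 lost their calls without LMP1 replicate 1, without LMP1 replicate 2 or without Lung-LMP1 replicate 3. Of 19 suprabasal and stress keratins 10 were tested and 7 rose (70.0%, against 6.17% of all genes tested), none fell (median log2 fold change 6.90). Krt6a, a keratin of wounded and rapidly growing epithelium (chromosome 15, 101689910 to 101694307), had 2432, 1347 and 971 CPM in Lung-LMP1 organoids and 4.12 and 15.8 CPM in LMP1 organoids (159.6-fold, adjusted p = 0.01). Krt17 (chromosome 11, 100256217 to 100261029) had 1843, 584 and 974 CPM in Lung-LMP1 organoids and 4.65 and 12.3 CPM in LMP1 organoids (134-fold, adjusted p = 0.00912). Krt4 and Krt13 are the pair of non-cornified mucosa such as that of mouth and oesophagus. Krt4 (chromosome 15, 101918535 to 101924735) had 387, 351 and 510.5 CPM in Lung-LMP1 organoids and 3.38 and 4.43 CPM in LMP1 organoids (107-fold, adjusted p = 0.00832), steady across Lung-LMP1 organoids, while Krt13 varied among them. Krt6a, Krt14 and Krt17 have close paralogues, and the handling of reads shared with them is not stated, so their values are uncertain to that extent. The type II genes Krt5, Krt6a and Krt4 thus lie in 1 cluster on chromosome 15 and the type I genes Krt14, Krt17 and Krt13 in 1 on chromosome 11, and genes of both clusters rose. Krt8 and Krt18 of simple epithelium were not called. Krt8 had 270.1, 1129.8 and 639 CPM in Lung-LMP1 organoids and 281 and 400.4 CPM in LMP1 organoids (adjusted p = 0.517) and Krt18 had 485, 854 and 655 CPM in Lung-LMP1 organoids and 294 and 391 CPM in LMP1 organoids (adjusted p = 0.269). Krt19, also of simple epithelium, rose 25.4-fold, with 458, 1625 and 820.5 CPM in Lung-LMP1 organoids and 26.5 and 49.7 CPM in LMP1 organoids (adjusted p = 0.00896).

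The cornified envelope list is made of cross-linked barrier proteins and the enzymes and lipids of the barrier. It had 33 of 49 genes tested, of which 13 rose (39.4%, against 6.17% of all genes tested) and none fell. Its median log2 fold change was 5.49, or 4.21 with the 7 members at 0 counts in a group set at their bound. Sfn, the 14-3-3 sigma protein of differentiating keratinocytes, had 354, 246 and 216 CPM in Lung-LMP1 organoids and 7.18 and 14 CPM in LMP1 organoids (25.7-fold, adjusted p = 0.00496). Tgm1, the transglutaminase that cross-links the envelope, had 182, 131 and 148 CPM in Lung-LMP1 organoids and 9.66 and 11.3 CPM in LMP1 organoids (14.6-fold, adjusted p = 0.00839). Trim29 had 129, 149 and 139 CPM in Lung-LMP1 organoids and 0.686 and 1.11 CPM in LMP1 organoids (156-fold, adjusted p = 0.00422). The ceramide synthase Cers3 rose 38.3-fold and the lipid transporter gene Abca12 was higher by 1236 times (95% counting interval 342 to 10210), with 2 counts over both LMP1 libraries. Among late envelope proteins Ivl, involucrin, had 5.96, 12.4 and 8.73 CPM in Lung-LMP1 organoids and 0 and 0.26 CPM in LMP1 organoids (adjusted p = 0.0264), and Sprr1a had 24.6, 183 and 97.8 CPM in Lung-LMP1 organoids and 1.48 and 3.06 CPM in LMP1 organoids (45.01-fold, adjusted p = 0.0264). Sprr2h was at 0 counts in LMP1 and at least 29.7-fold higher in Lung-LMP1, with a floor of 3 counts over the group, but was not called (adjusted p = 0.0574). Aqp3, the glycerol channel of basal keratinocytes, had 298, 324 and 206 CPM in Lung-LMP1 organoids and 1.16 and 2.80 CPM in LMP1 organoids (141-fold, adjusted p = 0.0352).

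Part of the extracellular matrix genes fell. Of 52 matrix glycoproteins and proteoglycans 42 were tested, 15 fell, 1 rose and 26 were not called (median log2 fold change -2.41). Thus 35.7% fell and 2.38% rose, against 3.95% and 6.17% of all genes tested. Serpinh1, the collagen chaperone HSP47, had 0.727, 1.99 and 0.741 CPM in Lung-LMP1 organoids and 59.9 and 37.6 CPM in LMP1 organoids (41.6-fold lower, adjusted p = 0.00418). Ltbp2, which binds fibrillin microfibrils, had 0.436, 0.256 and 0.494 CPM in Lung-LMP1 organoids and 19.4 and 27.7 CPM in LMP1 organoids (58.8-fold lower, adjusted p = 0.00496). Aebp1, a collagen-binding matrix protein, had 3.92, 5.44 and 2.80 CPM in Lung-LMP1 organoids and 112 and 94.7 CPM in LMP1 organoids (25.4-fold lower, adjusted p = 0.00831). Each was present in both LMP1 libraries and near the floor, or a few CPM, in all Lung-LMP1 libraries. Fbln2 and Vcan, fibulin 2 and versican, fell 88.6-fold and 5.65-fold (adjusted p = 0.0162 and 0.0115). The collagen cross-linking enzymes Lox, Loxl1 and Loxl2 fell too, Loxl2 with 4.87, 4.80 and 3.05 CPM in Lung-LMP1 organoids and 13.04 and 14.4 CPM in LMP1 organoids (3.23-fold lower, adjusted p = 0.037). Ecm1, an extracellular protein of skin, was the 1 that rose, with 218, 163 and 117 CPM in Lung-LMP1 organoids and 19.01 and 20.97 CPM in LMP1 organoids (8.32-fold, adjusted p = 0.00831). Without LMP1 replicate 1 no matrix gene was called, and 3 were without LMP1 replicate 2, 5 without Lung-LMP1 replicate 2, 6 without replicate 1 and 6 without replicate 3, against 30 in a fit of the 5 TMPL libraries alone. Of those 30, 26 fell and 4 rose, and that fit called 2682 of the 12915 genes it tested. The fibroblast markers Dcn and Pdgfrb were lower in Lung-LMP1 organoids too, with values given below, and their part in the result was not tested.

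Collagens were split by type. Of 24 listed, 17 were tested, 4 fell (23.5%, against 3.95% of all genes tested) and 2 rose (11.8%, against 6.17%), with a median log2 fold change of -2.32. Col5a3, a fibrillar chain, had 1.09, 0.512 and 0 CPM in Lung-LMP1 organoids and 23.2 and 46.8 CPM in LMP1 organoids (63.6-fold lower, adjusted p = 0.0283). Col6a3 had 0 counts in all Lung-LMP1 libraries and 2.27 and 1.89 CPM in LMP1 organoids, so it was at least 29.1-fold lower with a floor of 3 counts over the group (adjusted p = 0.0236). Col3a1, with 58.02 and 23.8 CPM in LMP1 organoids, and Col6a1, with 61.6 and 29.95 CPM, were likewise at 0 counts in all Lung-LMP1 libraries, at least 591-fold and at least 656-fold lower. They were not called (adjusted p = 0.11 and 0.107). Their values in TMP organoids were uneven, with 0.0706 and 0 CPM in Lung-Ctr organoids and 0, 91.6 and 0.138 CPM in Ctr organoids for Col3a1. Col18a1 and Col8a1, of basement membrane and short-chain type, rose 1.82-fold and 13.7-fold (adjusted p = 0.0424 and 0.0138).

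Proteases and the cytoskeleton contained genes going both ways. Of 35 matrix proteases and inhibitors 28 were tested, with 4 that rose, 6 that fell and a median log2 fold change of 0.10. The shares were 14.3% and 21.4%, against 6.17% and 3.95% of all genes tested. Mmp2, gelatinase A, had 0.145, 0.128 and 0.165 CPM in Lung-LMP1 organoids and 23.97 and 11.8 CPM in LMP1 organoids (116-fold lower, adjusted p = 0.00939). Timp1, an inhibitor of metalloproteases, had 3.20, 7.69 and 2.64 CPM in Lung-LMP1 organoids and 27.9 and 41.6 CPM in LMP1 organoids (7.68-fold lower, adjusted p = 0.027). Against these, Plau, the urokinase, had 56.2, 98.5 and 74.5 CPM in Lung-LMP1 organoids and 10.98 and 16.1 CPM in LMP1 organoids (5.64-fold, adjusted p = 0.00653), and the serpins Serpinb5 and Serpinb2 rose 59.1-fold and 42.7-fold (adjusted p = 0.00313 and 0.0248). Of 32 cytoskeletal genes often used as mesenchymal markers 26 were tested, 3 fell (11.5%, against 3.95%), 5 rose (19.2%, against 6.17%) and the median was -0.01. Lgals1, galectin 1 (chromosome 15, 78926725 to 78930465), had 20.1, 19.5 and 20.3 CPM in Lung-LMP1 organoids and 317 and 353 CPM in LMP1 organoids (16.8-fold lower, log2 fold change -4.07 ± 0.36 (SE), adjusted p = 0.00166). Cald1, caldesmon, had 19.04, 23.1 and 17.5 CPM in Lung-LMP1 organoids and 234 and 243 CPM in LMP1 organoids (11.99-fold lower, adjusted p = 0.0146). Fscn1, the actin bundling protein fascin, went the other way with 543, 238 and 301 CPM in Lung-LMP1 organoids and 24.1 and 16.9 CPM in LMP1 organoids (17.6-fold, adjusted p = 0.0351). Palld, palladin of stress fibres, had 115, 164 and 125 CPM in Lung-LMP1 organoids and 4.86 and 5.80 CPM in LMP1 organoids (25.3-fold, adjusted p = 0.00422), and Cnn2 and Tpm2 rose 6.69-fold and 4.16-fold (adjusted p = 0.00583 and 0.031). The strip plot of the lists sets these groups side by side.

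**Figure D3:**
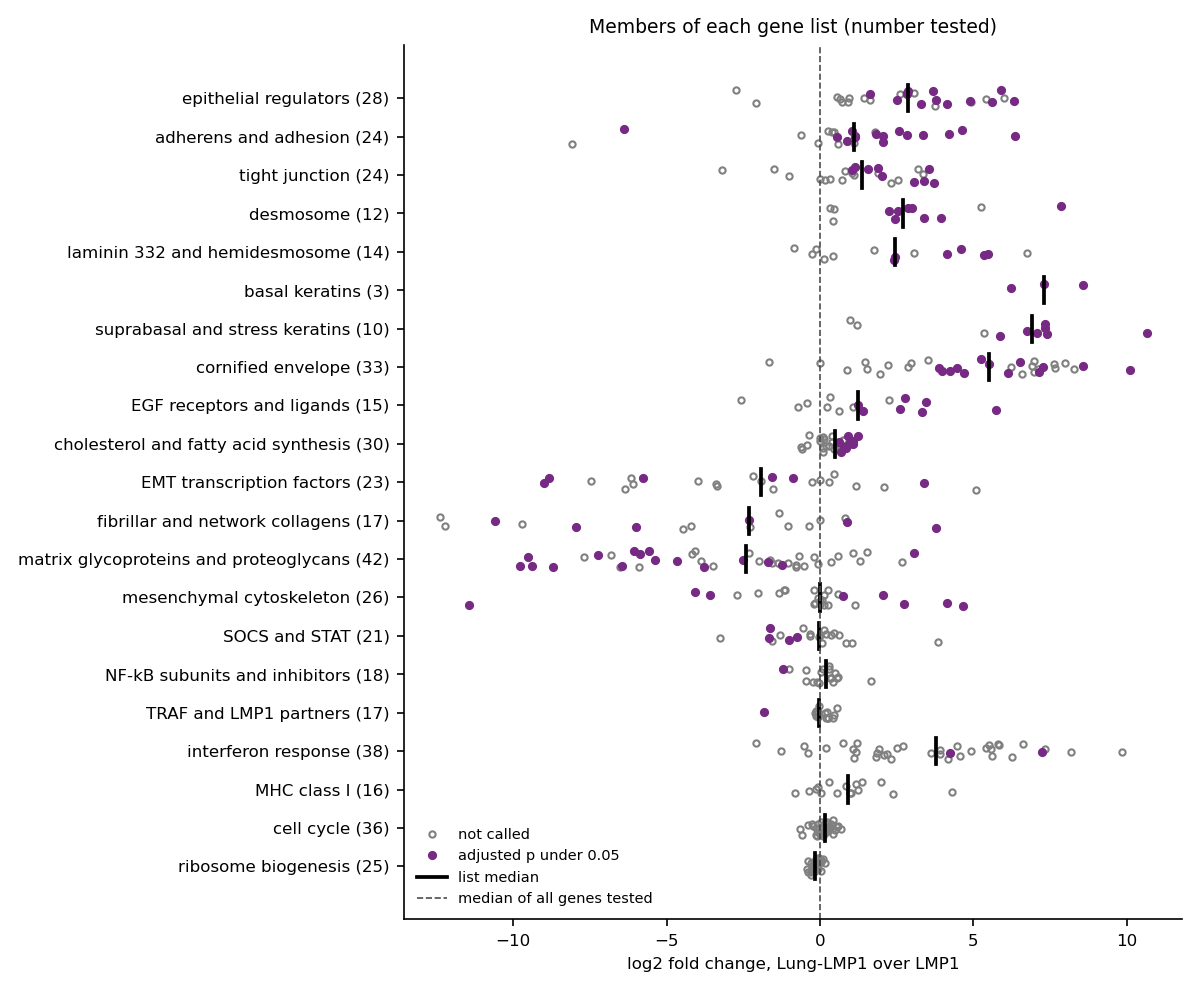
Log2 fold change of Lung-LMP1 over LMP1 organoids (horizontal axis) of each tested member of 21 gene lists (rows). Filled points passed an adjusted p of 0.05, open points did not, black bars are list medians and the dashed line is the median of all genes, 0.01: the list medians reach 7.30 for basal keratins and -2.41 for matrix glycoproteins, and cell cycle genes lie close to the line.

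Genes of NF-kB signalling and of TRAF adaptors, which LMP1 is known to use, were called in small numbers between groups that both carry LMP1. JAK and STAT genes follow in the next paragraph. All 18 NF-kB subunits and inhibitors were tested and 1 was called (median log2 fold change 0.20). Bcl3, an atypical IkB protein, fell 2.32-fold, with 28.5, 36.6 and 27.3 CPM in Lung-LMP1 organoids and 70.2 and 72.9 CPM in LMP1 organoids (adjusted p = 0.0268). Tnfaip3, the deubiquitinase A20 and a target of the pathway, had 62.7, 159.7 and 102 CPM in Lung-LMP1 organoids and 31.5 and 36.3 CPM in LMP1 organoids (adjusted p = 0.0604), and Nfkb2 had 154, 152 and 99.1 CPM in Lung-LMP1 organoids and 104 and 172 CPM in LMP1 organoids (adjusted p = 0.963). Of 18 TRAF, TRADD and partner genes 17 were tested and 1 fell, Tnfrsf1b, the TNF receptor 2, with 17.5, 28.7 and 12.9 CPM in Lung-LMP1 organoids and 70.4 and 68.96 CPM in LMP1 organoids (3.53-fold lower, adjusted p = 0.0257). The share called is 5.56% and 5.88% in these lists, against 10.1% of all genes, which in lists of this size is a difference of about 1 gene. Of 42 chemokines and cytokines 34 were tested, 3 rose and 2 fell, 14.7% against 10.1% of all genes. Csf1, the macrophage growth factor, had 19.5, 19.5 and 17.2 CPM in Lung-LMP1 organoids and 84.2 and 101 CPM in LMP1 organoids (4.95-fold lower, adjusted p = 0.00768). Cxcl16 had 125, 196 and 129 CPM in Lung-LMP1 organoids and 30.4 and 61.4 CPM in LMP1 organoids (3.27-fold, adjusted p = 0.0381), and Ccl7, a monocyte attractant, had 0.436, 0.641 and 0.329 CPM in Lung-LMP1 organoids and 20.9 and 37.2 CPM in LMP1 organoids (60.3-fold lower, adjusted p = 0.0464).

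Some genes of the gp130 and STAT3 axis and of the acute phase fell in Lung-LMP1 organoids. Of 23 JAK, STAT and SOCS genes 21 were tested, 4 fell (19.05%, against 3.95% of all genes) and none rose (median log2 fold change -0.05), while DESeq2 called 7 lower and 1 higher (7.48% and 11.4% of all genes were called lower and higher by DESeq2). Stat3 itself had 126, 149 and 127 CPM in Lung-LMP1 organoids and 228 and 226 CPM in LMP1 organoids (1.69-fold lower, adjusted p = 0.0195), and Il6st, the shared receptor gp130, had 112, 101 and 76.7 CPM in Lung-LMP1 organoids and 187 and 201 CPM in LMP1 organoids (2.01-fold lower, adjusted p = 0.0201). Socs3, a feedback inhibitor induced by STAT3, had 40.98, 48.6 and 84.8 CPM in Lung-LMP1 organoids and 210.4 and 158 CPM in LMP1 organoids (3.17-fold lower, adjusted p = 0.0251), and Osmr, the oncostatin M receptor, fell 3.11-fold (adjusted p = 0.0364). Cebpb, a factor of acute phase genes, fell 2.58-fold with 82.98, 91.3 and 78.3 CPM in Lung-LMP1 organoids and 207 and 228 CPM in LMP1 organoids (log2 fold change -1.37 ± 0.13 (SE), adjusted p = 0.00182). The ranges of the groups did not overlap for any of these genes, and the folds were modest. Of 27 acute phase and antimicrobial genes 17 were tested, and by edgeR 3 fell (17.6%, against 3.95% of all genes) and none rose. DESeq2 called 2 of the 17 lower and 4 higher, against 7.48% and 11.4% of all genes, so the list had members on both sides. Lcn2, the iron-binding lipocalin 2, had 19.8, 219 and 44.1 CPM in Lung-LMP1 organoids and 1501 and 1888 CPM in LMP1 organoids (17.97-fold lower, adjusted p = 0.0424), with replicate 2 highest in Lung-LMP1. Lbp and Hp, lipopolysaccharide-binding protein and haptoglobin, were not called, Hp with 0.363, 7.69 and 0.824 CPM in Lung-LMP1 organoids and 81.3 and 69.2 CPM in LMP1 organoids (adjusted p = 0.0865 for Lbp and 0.115 for Hp). Reg3g, a lectin that kills bacteria, went the other way. It had 0.654, 155 and 1.32 CPM in Lung-LMP1 organoids and 0 counts in LMP1 organoids, at least 674-fold higher with a floor of 3 counts over the group, almost all of it in replicate 2, and was not called by edgeR (adjusted p = 0.136). Pigr, which carries antibodies across epithelium, had 3.78, 74.3 and 11.9 CPM in Lung-LMP1 organoids and 1.32 and 1.69 CPM in LMP1 organoids (adjusted p = 0.193), again highest in replicate 2. Without Lung-LMP1 replicate 3 no acute phase gene was called, nor without either LMP1 library.

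Several growth factor receptors and ligands of epithelium rose. Of 16 EGF family receptors and ligands 15 were tested, 7 rose (46.7%, against 6.17% of all genes tested), none fell and 8 were not called (median log2 fold change 1.23). Egfr had 150.3, 189.9 and 148 CPM in Lung-LMP1 organoids and 66.998 and 71.8 CPM in LMP1 organoids (2.35-fold, adjusted p = 0.0453), and Erbb3, the kinase-poor partner receptor, had 77.8, 162 and 111 CPM in Lung-LMP1 organoids and 13.7 and 20.8 CPM in LMP1 organoids (6.79-fold, adjusted p = 0.00731). The ligands Tgfa, Ereg, Btc, Hbegf and Nrg1 all rose. Tgfa had 105, 144 and 107 CPM in Lung-LMP1 organoids and 13.6 and 25.3 CPM in LMP1 organoids (6.11-fold, adjusted p = 0.00834). Nrg1 had 52.2, 44.6 and 32.9 CPM in Lung-LMP1 organoids and 0.475 and 1.17 CPM in LMP1 organoids (52.8-fold, adjusted p = 0.017), barely above its floor in LMP1 organoids. No call in the list was left without LMP1 replicate 1 and 2 were left without LMP1 replicate 2. Among 43 tested of 53 other growth factors and receptors 12 rose, 4 fell and 27 were not called (median log2 fold change -0.07). In percent, 27.9 rose and 9.30 fell, against 6.17 and 3.95 of all genes tested. Met, the HGF receptor, had 203, 205 and 197 CPM in Lung-LMP1 organoids and 48.99 and 69.1 CPM in LMP1 organoids (3.42-fold, adjusted p = 0.00496), and its relative Mst1r had 34.2, 52.9 and 40.7 CPM in Lung-LMP1 organoids and 1.11 and 0.521 CPM in LMP1 organoids (51.02-fold, adjusted p = 0.00376). Epha1, Epha2 and Epha4, ephrin receptors, rose 12.3-fold, 3.31-fold and 10.5-fold (adjusted p = 0.00609, 0.00373 and 0.00604). Fgfr3 had 168, 229 and 99.9 CPM in Lung-LMP1 organoids and 4.01 and 6.64 CPM in LMP1 organoids (31.2-fold, adjusted p = 0.0311) while Fgfr1, an FGF receptor of many mesenchymal cells, had 7.12, 23.3 and 4.2003 CPM in Lung-LMP1 organoids and 139.9 and 92.8 CPM in LMP1 organoids and was not called (adjusted p = 0.104). Pdgfrb, a receptor of mesenchymal and mural cells, had 0, 0.0641 and 0 CPM in Lung-LMP1 organoids and 7.55 and 4.49 CPM in LMP1 organoids and was higher in LMP1 organoids by 257 times (95% counting interval 45.6 to 10180). Gas6, the AXL ligand, had 27.1, 15.4 and 19.3 CPM in Lung-LMP1 organoids and 114 and 94.3 CPM in LMP1 organoids (5.05-fold lower, adjusted p = 0.037).

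In developmental pathways single members were called in both directions. Of 42 TGF-beta and BMP genes 35 were tested, 3 rose and 5 fell, 22.9% against 10.1% of all genes (median log2 fold change 0.23). Bmp7 had 109, 87.4 and 87.6 CPM in Lung-LMP1 organoids and 2.22 and 3.78 CPM in LMP1 organoids (31.7-fold, adjusted p = 0.00212), whereas Tgfb3 had 2.54, 7.75 and 7.08 CPM in Lung-LMP1 organoids and 56.9 and 36.3 CPM in LMP1 organoids (8.03-fold lower, adjusted p = 0.0286). Fstl1, a secreted BMP antagonist, had 0 counts in all Lung-LMP1 libraries and 25.9 and 33.7 CPM in LMP1 organoids, at least 406-fold lower with a floor of 3 counts over the group (adjusted p = 0.0356). Of 49 WNT genes 38 were tested and 4 rose, and this 10.5% is near the 10.1% called over all genes. Wnt4 had 98.5, 39.3 and 56.7 CPM in Lung-LMP1 organoids and 2.64 and 2.80 CPM in LMP1 organoids (23.8-fold, adjusted p = 0.00311), and the receptor Fzd6 had 151, 129.7 and 129 CPM in Lung-LMP1 organoids and 56.8 and 61.3 CPM in LMP1 organoids (2.31-fold, adjusted p = 0.00712). Of 23 Notch genes 18 were tested, 4 rose and 1 fell (27.8%). The ligands Jag1 and Dll1 and the receptor Notch3 rose 2.81-fold, 40.96-fold and 16.7-fold (adjusted p = 0.0213, 0.0175 and 0.0143), and Mfng, the manic fringe glycosyltransferase that modifies Notch, had 0.0727, 0.256 and 0.247 CPM in Lung-LMP1 organoids and 16.9 and 19.01 CPM in LMP1 organoids (89.6-fold lower, adjusted p = 0.00972). Of 19 Hippo genes, all tested, 3 fell and 1 rose (21.1%). Tead2, a DNA-binding partner of YAP, had 6.03, 5.57 and 9.06 CPM in Lung-LMP1 organoids and 70.7 and 53.6 CPM in LMP1 organoids (9.03-fold lower, adjusted p = 0.00602).

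Lung-LMP1 organoids differed among themselves in interferon-stimulated genes, with a median log2 range over the 3 libraries of 3.27 per gene, against 0.50 over all genes tested. Of all genes tested, 40.04% were highest in replicate 1, 38.5% in replicate 2 and 21.5% in replicate 3. Of 38 interferon response genes all were highest in replicate 2, and of 16 tested MHC class I and antigen processing genes 15 were. Oasl2, an antiviral gene (chromosome 5, 114896936 to 114912234), had 11.5, 133 and 6.75 CPM in Lung-LMP1 organoids and 1.11 and 1.24 CPM in LMP1 organoids (adjusted p = 0.103). Oas3 had 4.21, 98.5 and 1.32 CPM in Lung-LMP1 organoids and 0.106 and 0.326 CPM in LMP1 organoids, and Mx1, which blocks viral replication, had 2.11, 44.6 and 6.59 CPM in Lung-LMP1 organoids and 0.264 and 0.456 CPM in LMP1 organoids (adjusted p = 0.123 and 0.0817). The other Lung-LMP1 libraries were also above LMP1 organoids for these 3 genes, but by much less. The list's median log2 fold change was 3.78, and 2 members rose, Oasl1 and Phf11d (5.26%, against 6.17% of all genes tested). Without replicate 2 the median was 1.12, with no call. DESeq2 called 17 of the 38 higher and none lower, against 11.4% of all genes that it called higher. The 2 calls were also lost without any other single TMPL library, and 4 members passed with the replicate number as a block. MHC class I genes had a median of 0.91, 0 calls by edgeR (3 at an unadjusted p under 0.05, 3 by DESeq2) and a median of 0.08 without replicate 2.

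Replicate 2 of Lung-LMP1 also held the highest value of 25 of 28 tested glycolysis and hypoxia genes, 24 of 28 immediate early genes, 22 of 24 tight junction genes and 5 of 5 simple keratins. Ndrg1, induced when oxygen is low, had 77.2, 662 and 317 CPM in Lung-LMP1 organoids and 63.8 and 55.2 CPM in LMP1 organoids (adjusted p = 0.0875), and Vegfa, the angiogenic factor, had 121, 467 and 234 CPM in Lung-LMP1 organoids and 84.3 and 83.7 CPM in LMP1 organoids (adjusted p = 0.066). Neither passed the test, and replicate 1 lay close to LMP1 organoids for both. The mucin genes Muc4 and Muc5b, of which Muc5b was picked after its values were seen, were also highest in replicate 2. Muc4, a membrane mucin, had 40.7, 188 and 54.1 CPM in Lung-LMP1 organoids and 0.37 and 1.24 CPM in LMP1 organoids (119.5-fold, adjusted p = 0.0445), and Muc5b, a secreted mucin, had 1.02, 162 and 0.741 CPM in Lung-LMP1 organoids and 0.317 and 0.195 CPM in LMP1 organoids (adjusted p = 0.147). By contrast, replicate 1 was highest for all 25 ribosome biogenesis genes and all 7 tested anterior Hox genes, and replicate 2 was highest for 1 of 36 cell cycle genes. Pes1, a nucleolar factor of ribosome assembly, had 199, 116 and 141 CPM in Lung-LMP1 organoids and 186 and 183 CPM in LMP1 organoids (adjusted p = 0.531), and Rrp9 had 101, 37.5 and 51.7 CPM in Lung-LMP1 organoids and 76.8 and 94.9 CPM in LMP1 organoids (adjusted p = 0.546). For both genes the Lung-LMP1 libraries stood in the same order as for Myc, but this is an order of only 3 libraries and a link was not tested. Replicate 2 lay at 22.4 on the second principal component (17.9% of the variance), and replicates 1 and 3 at -28.3 and -17.4. The cause of the difference between these libraries was not tested. Between groups, 0 of 36 cell cycle genes and 0 of 25 ribosome biogenesis genes were called by edgeR (1 and 0 by DESeq2), with 4 and 0 at an unadjusted p under 0.05 and median log2 fold changes of 0.15 and -0.16.

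**Figure D4:**
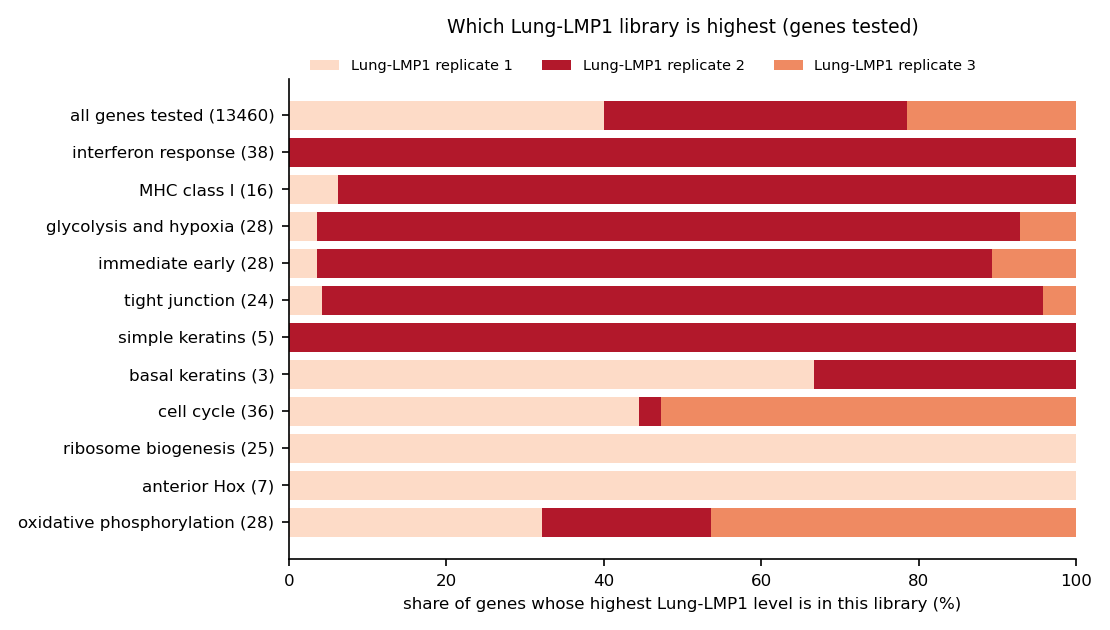
Share of genes (horizontal axis, percent) whose highest level among the 3 Lung-LMP1 libraries was in replicate 1 (pale), replicate 2 (dark red) or replicate 3 (orange), for all genes tested and 11 lists (rows). Replicate 2 holds 38 of 38 interferon response genes and 1 of 36 cell cycle genes, and replicate 1 holds 25 of 25 ribosome biogenesis genes.

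Some genes of sterol synthesis and of glutathione use rose. Of 30 cholesterol and fatty acid genes, all tested, 9 rose, none fell, 21 were not called and the median log2 fold change was 0.49. Of all genes tested, 6.17% rose and 3.95% fell, so the list held more risers than that share. Hmgcs1, which makes HMG-CoA, had 554, 662 and 599.9 CPM in Lung-LMP1 organoids and 287 and 291 CPM in LMP1 organoids (2.09-fold, log2 fold change 1.07 ± 0.14 (SE), adjusted p = 0.00483). Msmo1, Sc5d, Lss, Nsdhl, Stard4 and Scd2 rose by 1.53-fold to 2.38-fold. No gene of the list passed without either LMP1 library, 4 to 6 passed without any single Lung-LMP1 library and 1 passed with the replicate number as a block. Of 35 glutathione and xenobiotic genes 32 were tested, 5 rose (15.6%, against 6.17% of all genes tested), 1 fell (3.13%, against 3.95%) and 26 were not called (median 0.76). Gpx2, the epithelial glutathione peroxidase, had 277, 329.6 and 302 CPM in Lung-LMP1 organoids and 2.16 and 6.32 CPM in LMP1 organoids (71.99-fold, adjusted p = 0.00247), and Gpx3, the secreted one, had 0.145, 0.32 and 0.247 CPM in Lung-LMP1 organoids and 7.55 and 8.79 CPM in LMP1 organoids (33.1-fold lower, adjusted p = 0.0204). The transferase Gsta4 had 330.3, 308 and 341 CPM in Lung-LMP1 organoids and 4.49 and 8.07 CPM in LMP1 organoids (52.1-fold, adjusted p = 0.00495). Slc7a11, the cystine importer that feeds glutathione synthesis, had 574, 893 and 1081 CPM in Lung-LMP1 organoids and 82.6 and 82.6 CPM in LMP1 organoids (10.3-fold, adjusted p = 0.0151). Of 28 oxidative phosphorylation genes 1 was called, Ndufa2 (3.57%, against 10.1% of all genes). In the cell cycle entry list 1 of 15 rose, which at 6.67% is close to the 6.17% of all genes that rose. It was Ccnd2, cyclin D2, with 641, 603 and 553 CPM in Lung-LMP1 organoids and 116 and 90.3 CPM in LMP1 organoids (5.80-fold, adjusted p = 0.00731). Among 22 genes known as p53 targets, measured here in Trp53-/- cells, 4 were called (18.2%). Perp and Pmaip1 rose 5.40-fold and 6.97-fold while Fas and Bbc3 fell 8.97-fold and 3.51-fold (adjusted p = 0.0109, 0.039, 0.0117 and 0.0388).

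A few pharyngeal transcription factors rose, the defining lung factor Nkx2-1 was not detected in either group and some markers shared by lung and other epithelia rose. Of 43 pharyngeal and craniofacial factors 24 were tested, 4 rose (16.7%, against 6.17% of all genes tested) and none fell (median log2 fold change -0.07). Pax9, a pharyngeal pouch factor, had 75.6, 116 and 75.1 CPM in Lung-LMP1 organoids and 3.33 and 3.13 CPM in LMP1 organoids (27.5-fold, adjusted p = 0.00211), and Tbx1 of the pharyngeal arches had 48.8, 92.3 and 57.3 CPM in Lung-LMP1 organoids and 5.54 and 4.95 CPM in LMP1 organoids (12.6-fold, adjusted p = 0.00765). Foxe1, a factor of thyroid and pharyngeal endoderm, had 6.18, 3.84 and 7.49 CPM in Lung-LMP1 organoids and 0.0528 and 0 CPM in LMP1 organoids and was higher by 195 times (95% counting interval 34.7 to 7734). Of 20 lung lineage factors 17 were tested and 2 rose (11.8%, against 6.17% of all genes tested), Foxa1 and Hopx, and Hopx is expressed also in stratified epithelium. Nkx2-1, the defining factor of lung epithelium, had 0 counts in all 5 libraries, which allows up to 3 counts or 0.239 CPM in a library. Surfactant gene Sftpc had 0 counts in all Lung-LMP1 libraries and 1 and 0 in LMP1 organoids, and the club cell gene Scgb1a1 had 0 in all 5. Nkx2-1, Sftpc and Scgb1a1 were therefore at or below the floor in both groups, which does not hold for all other members of their lists. Of 12 alveolar markers 7 were tested and 2 rose, Hopx and Pdpn (28.6%, median log2 fold change -0.22), and of 13 airway secretory markers 6 were tested and 2 rose, Lypd2 and Muc4 (33.3%, median 6.93), against 6.17% of all genes. Pdpn, podoplanin, which basal cells of stratified epithelium also express, had 44.6, 80.1 and 51.5 CPM in Lung-LMP1 organoids and 2.38 and 3.84 CPM in LMP1 organoids (18.9-fold, adjusted p = 0.0152). Lypd2 had 3.20, 21.3 and 11.4 CPM in Lung-LMP1 organoids and 0.0528 and 0.13 CPM in LMP1 organoids, from 3 counts over both LMP1 libraries, and was higher by 142 times (95% counting interval 48.4 to 691), with an adjusted p of 0.0352. Aqp5, a water channel of alveolar and gland cells, was detected in all 5, with 42.9, 345 and 156 CPM in Lung-LMP1 organoids and 292 and 281 CPM in LMP1 organoids (adjusted p = 0.595).

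Defining markers of leucocytes and endothelium were at or near 0. Ptprc, the pan-leucocyte gene CD45, had 0, 0 and 1 counts in Lung-LMP1 and 0 and 1 in LMP1 organoids, the endothelial gene Cdh5 had 0 in all 5 and Pecam1 had 1, 11 and 4 against 7 and 5. In the fibroblast list, 8 of 16 genes were tested. Of these 8, 2 fell and none rose, against 3.95% and 6.17% of all genes tested, and 7 had a lower mean in Lung-LMP1. Their median log2 fold change was -5.635, or -4.66 with the 2 members at 0 counts in a group set at their bound. The summed level of the list, in CPM before TMM scaling, differed less. It was 138 to 224 CPM in Lung-LMP1 and 179 to 264 CPM in LMP1 organoids, most of it from Gsn, which epithelium also expresses. There were 10 members at 0 counts in each Lung-LMP1 library and 3 and 2 in LMP1 replicates 1 and 2. Lum had 0 counts in all Lung-LMP1 libraries and 11 and 1 in LMP1 organoids, Dcn had 0, 0 and 0.247 CPM in Lung-LMP1 organoids and 10.03 and 8.79 CPM in LMP1 organoids, and Thy1 and Tcf21 had 0 in all 5. Summed leucocyte markers were 45.6 to 287 CPM and 88.4 to 129 CPM, mostly Cd14, endothelial markers 0.948 to 3.06 CPM and 20.8 to 28.6 CPM, mostly Plvap, which fell 42.1-fold (adjusted p = 0.015), and smooth muscle markers 83.1 to 167 CPM and 14.8 to 16.4 CPM, mostly Notch3, each pair of ranges being that of Lung-LMP1 organoids and then that of LMP1 organoids. The part of such cells in the result was not tested.

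Beyond the lists, the named rule picked the 12 most certain calls in each direction at a mean log2 CPM of at least 3. Apobec1, an RNA-editing cytidine deaminase, had 109, 92.9 and 89.03 CPM in Lung-LMP1 organoids and 4.17 and 4.95 CPM in LMP1 organoids (21.3-fold, log2 fold change 4.41 ± 0.26 (SE), adjusted p = 0.000306). Ly6a, the surface antigen Sca-1, had 891, 1888 and 1159.5 CPM in Lung-LMP1 organoids and 14.4 and 21.5 CPM in LMP1 organoids (73.2-fold, adjusted p = 0.000812). Mpzl2, an adhesion protein of epithelia, had 250.6, 248 and 264 CPM in Lung-LMP1 organoids and 38.3 and 51.1 CPM in LMP1 organoids (5.69-fold, adjusted p = 0.000566). The groups were far apart for all 3 genes. The kinase gene Pak6, the transporter gene Slc4a11, the fucosyltransferase gene Fut9, Ablim1 and Tshz2 rose 47.4-fold, 27.6-fold, 29.5-fold, 5.59-fold and 14.6-fold (adjusted p = 0.000812, 0.000812, 0.000812, 0.00175 and 0.00182). On the side of genes that fell, Pcbp4, an RNA-binding protein, had 7.05, 6.47 and 8.89 CPM in Lung-LMP1 organoids and 168 and 153 CPM in LMP1 organoids (21.5-fold lower, adjusted p = 0.00211). Ralgds, a RAS effector, had 64.3, 54.3 and 59.3 CPM in Lung-LMP1 organoids and 196 and 184 CPM in LMP1 organoids (3.20-fold lower, adjusted p = 0.00175). Mgst1, a microsomal glutathione transferase, had 25.4, 33.9 and 29.3 CPM in Lung-LMP1 organoids and 102 and 92.6 CPM in LMP1 organoids (3.29-fold lower, adjusted p = 0.00303). Syde1, Cuedc2, Ogfod2, Pde4a and Itga7 fell 4.50-fold, 3.84-fold, 3.36-fold, 6.68-fold and 7.14-fold.

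Among the largest changes at that level, Ppbp, a platelet chemokine precursor, had 223, 78.02 and 66.8 CPM in Lung-LMP1 organoids and 0.0528 and 1.17 CPM in LMP1 organoids (208-fold, adjusted p = 0.0119). Tns4, a tensin of epithelial cells, had 296, 205 and 123 CPM in Lung-LMP1 organoids and 0.686 and 1.56 CPM in LMP1 organoids (187-fold, adjusted p = 0.00531), and the phospholipase Plch2 rose 202-fold (adjusted p = 0.0347). Myh10, non-muscle myosin IIB, had 6.10, 4.10 and 5.19 CPM in Lung-LMP1 organoids and 166 and 169 CPM in LMP1 organoids (32.6-fold lower, adjusted p = 0.0411). Abca1, the cholesterol exporter, had 2.25, 4.996 and 1.32 CPM in Lung-LMP1 organoids and 123 and 63.9 CPM in LMP1 organoids (32.3-fold lower, adjusted p = 0.0286). Tgm2, tissue transglutaminase, had 0.945, 3.97 and 2.64 CPM in Lung-LMP1 organoids and 76.98 and 39.3 CPM in LMP1 organoids (22.96-fold lower, adjusted p = 0.0495). Zcchc24, Hip1, Lix1l and Gpd1 fell 39.1-fold, 16.9-fold, 15.8-fold and 20.2-fold (adjusted p = 0.0372, 0.0166, 0.0196 and 0.0233). There were 32 genes called in the same direction in every alternative fit of this comparison that changed the tool, scaling, filter, samples, block or correction or left out a TMPL library. They include Apobec1, Ap1m2, Rab25, Lamb3, Grhl2, Grhl3 and Gpx2 among those that rose and Lgals1, Ralgds, Cebpb, Pcbp4 and Syde1 among those that fell.

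Whether the Lung prefix separates organoids in the same way without LMP1 was asked with Lung-Ctr (n = 2) against Ctr (n = 3) organoids, which share no library with the comparison above. By edgeR, 0 of 13460 genes passed there (0%), with 717 at an unadjusted p under 0.05 and 40 calls by DESeq2. The SD of log2 fold changes across genes was 1.75 for Lung-LMP1 over LMP1 and 0.92 for Lung-Ctr over Ctr. Across genes, which are not independent replicates, the log2 fold changes had a Pearson r of 0.33 and a Spearman rho of 0.25. The difference between the effects, tested as an interaction, passed for 120 genes (0.892%), 109 with a more positive effect in TMPL and 11 with a more negative one. Without LMP1 replicate 1 it passed for 4 genes, without LMP1 replicate 2 for 5, without Lung-LMP1 replicates 1, 2 and 3 for 9, 23 and 9, without Ctr replicates 1, 2 and 3 for 43, 331 and 66 and without Lung-Ctr replicates 1 and 2 for 53 and 274. The median absolute log2 fold change of the 120 genes, which were picked by this difference, was 4.19 in TMPL and 0.37 in TMP.

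The levels show where these genes stood. For all 109 genes of more positive effect, each of the 5 TMP libraries was above both LMP1 libraries, and for 9 of the 11 of more negative effect each was below both. Ap1m2 had 123 and 108 CPM in Lung-Ctr organoids and 95.8, 68.2 and 108 CPM in Ctr organoids, all far above its values in LMP1 organoids (interaction log2 4.28 ± 0.40 (SE), adjusted p = 0.00716). Lamb3 had 154 and 233 CPM in Lung-Ctr organoids and 179.9, 79.7 and 101 CPM in Ctr organoids, above its values in LMP1 organoids (interaction log2 4.65 ± 0.58 (SE), adjusted p = 0.0218). Cebpb had 60.7 and 62.2 CPM in Lung-Ctr organoids and 56.2, 52.5 and 52.1 CPM in Ctr organoids, all below its LMP1 values (interaction log2 -1.56 ± 0.18 (SE), adjusted p = 0.0195). Thus for Ap1m2, Lamb3 and Cebpb LMP1 organoids were the group apart from the other 3. The interaction genes were picked by a contrast that includes the LMP1 libraries, so such a position follows in part from the selection. The share of all genes tested with this position was not counted. Ctr replicate 2 shared the high level of LMP1 organoids in part for Myh10 and Zcchc24, which fell, but not for Cebpb, which also fell. The share of falling genes with this pattern was not counted. Myh10 had 12.3 and 2.42 CPM in Lung-Ctr organoids and 5.83, 81.8 and 3.37 CPM in Ctr organoids, and Zcchc24 had 0.494 and 12.6 CPM in Lung-Ctr organoids and 9.46, 55.98 and 5.16 CPM in Ctr organoids, each highest in Ctr replicate 2 among TMP organoids. Their interactions were not called.

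**Figure D5:**
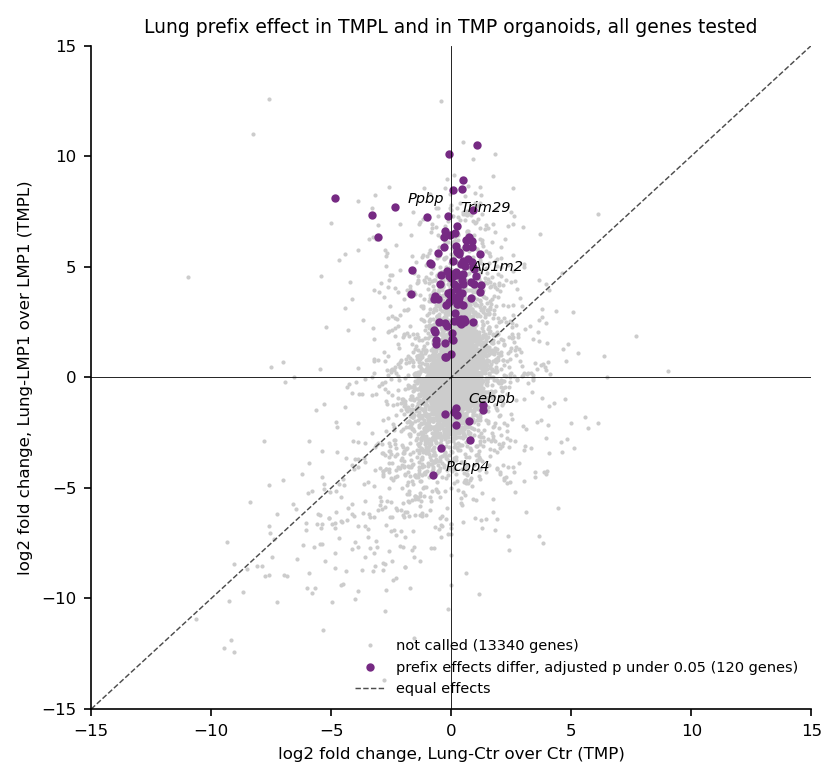
Log2 fold change of Lung-LMP1 over LMP1 organoids (vertical axis, TMPL) against that of Lung-Ctr over Ctr organoids (horizontal axis, TMP) for 13460 genes. Purple points are the 120 genes whose effects differed (adjusted p of the interaction under 0.05), and their median absolute effect was 4.19 in TMPL and 0.37 in TMP.

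The authors' deposited table for the same comparison called 3733 of 14262 genes with an adjusted p, 2056 higher and 1677 lower in Lung-LMP1. The authors' deposited table held 1360 of the 1361 edgeR calls with the same direction and 0 with the opposite one, which is 99.9% of the edgeR calls and 36.8% of the deposited calls among genes tested here.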

How the data were processed

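RNA of 16 mouse libraries was sequenced, and the 10 tumour organoid libraries entered the fits. The authors deposited whole-number read counts of 24421 genes per library, with no normalization. Reads were aligned with STAR to mm10 and DESeq and DESeq2 were used, per the submitters' processing notes, and the counting tool, annotation and strand setting were stated in none of the labels or headers, so reads of a gene and of an overlapping antisense gene cannot be told apart. The authors also deposited comparison tables with log2 fold changes and p-values, which were used only where named. Gene positions come from GENCODE vM21 on GRCm38 for 23510 genes. They were matched by the deposited Ensembl identifier, or by a unique symbol where that identifier was not found.

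Counts were filtered with filterByExpr, scaled by TMM and tested with edgeR 4.0.16 (glmQLFit and glmQLFTest, R 4.3.3) in 1 fit of the 4 tumour groups with 6 residual degrees of freedom, with a common biological coefficient of variation of 0.387. Adjusted p-values are Benjamini-Hochberg over all 13460 genes tested, all tests were two-sided and the threshold was 0.05. CPM are TMM-scaled unless stated otherwise, log2 fold changes are Lung-LMP1 over LMP1 with SE, and counting intervals are exact at 95% and cover counting error only. DESeq2 1.42.0, RLE size factors, no filter, a fit of the compared groups alone, a replicate block, a length and GC correction (mgcv 1.9.3) and fits leaving out each library were alternatives, and those that leave out a TMP library were added after seeing the data. The fit was tested on simulated data first. Figures were drawn with matplotlib 3.10.9.

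The comparison and the gene lists were chosen with earlier results of these data known. Named genes are Myc, Trp53 and Cdkn2a, the 12 calls of largest fold change and the 12 of smallest adjusted p in each direction at a mean log2 CPM of at least 3 with groups that did not overlap, up to 4 called members of smallest adjusted p per list and direction (the best uncalled ones where none was called), any epithelial regulator or EMT factor, and the 4 interaction calls of largest difference in each direction. Other genes printed with values, such as Cdh3, Epcam, Dsp, Itgb4, Lama3, Krt8, Krt18, Oasl2, Mx1, Ndrg1, Vegfa, Muc5b, Reg3g, Pigr, Aqp5, Fgfr1, Col3a1 and Dcn, were chosen after their values were seen. Results for a few genes are not reported here.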

Additional observations from a re-analysis of the deposited data

Results flagged for a closer look

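The Lung prefix effect differed between TMPL (Lung-LMP1 over LMP1) and TMP (Lung-Ctr over Ctr) organoids for 49 of the named genes reported here, by a test of the difference itself (edgeR interaction term, adjusted p under 0.05 over all genes tested). Over all genes tested it differed for 120 of 13460 (0.892%). Many named genes were picked by their fold change or p-value in TMPL, and some by the interaction. Their count therefore follows in part from that choice and is no separate evidence. The values below are the log2 fold change in TMPL minus that in TMP, so a positive one means a more positive effect in TMPL. Among regulators of epithelial and mesenchymal state it was 3.38 for Grhl2, 3.96 for Grhl3, 2.43 for Esrp1, 3.95 for Foxa1, 3.48 for Snai3, -1.68 for Foxc1, 4.58 for Pax9, 3.82 for Hopx and 2.67 for Tshz2. Among adhesion, junction and trafficking genes it was 1.62 for Mpzl2, 3.42 for Cldn7, 3.05 for Pkp3, 4.28 for Ap1m2 and 3.37 for Rab25. For genes of the basement membrane, matrix and integrins it was 4.65 for Lamb3, 1.996 for Itga3, 4.10 for Itgb6, 5.44 for Col8a1 and 5.28 for Serpinb5. For genes of the epidermal barrier it was 10.20 for Abca12, 4.49 for Cnfn, 4.65 for Sfn and 7.41 for Trim29. For cytoskeletal genes it was 4.15 for Palld, 6.64 for Tns4, 1.94 for Ablim1 and 4.35 for Pak6.

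Among ligands, receptors and their modifiers the difference was 4.07 for Bmp7, 4.67 for Wnt4, -2.70 for Rgma, 3.46 for Fgfbp1, 5.41 for Mst1r, 1.68 for Epha2, 10.06 for Ppbp and -2.55 for Amotl2 of the Hippo list. For enzymes of glutathione and sterol metabolism it was 5.30 for Gpx2, 5.47 for Gsta4, 2.99 for Gsto1, -1.98 for Mgst1 and 1.06 for Hmgcs1. For the remaining genes it was 3.95 for Apobec1, 3.94 for Fut9, 5.59 for Ly6a, 4.98 for Slc4a11, 6.58 for Pdzd2, -1.56 for Cebpb, -3.67 for Pcbp4, -1.41 for Ralgds and -2.35 for Syde1. Where LMP1 counts were near 0, as for Abca12 and Ppbp, the fitted difference depends on the prior count and is no bound.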

How the results depend on the processing

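Calls between Lung-LMP1 and LMP1 organoids numbered 2537 with DESeq2 (1530 up and 1007 down), 2682 in a fit of the compared groups alone (1459 up and 1223 down) and 360 with the replicate number as a block (288 up and 72 down). The calls ranged from 33 to 1756 over the fits that left out 1 library. The interaction gave 922 calls with DESeq2, 2 with the block and 4 to 331 without 1 library, and Lung-Ctr against Ctr gave 40 with DESeq2 and 0 to 31 without 1 library. Of the 183 named calls of the main comparison, 176 passed with DESeq2, 183 with RLE size factors, 151 without the filter, 182 with the compared groups alone, 98 with the block, 175 with the length and GC correction, 22 and 58 without LMP1 replicates 1 and 2 and 121, 123 and 102 without Lung-LMP1 replicates 1, 2 and 3.

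Whether replicate numbers pair the samples was not settled. Deviations of same-numbered libraries from their group means correlated at -0.348 to 0.174 (-0.138 and -0.056 between Lung-LMP1 and LMP1). Deviations within a group sum to 0, and those of a group of 2 mirror each other, so these correlations cannot exclude pairing. Of all named genes, 3 changed sign, none of them called. The log2 fold change of Trp53 ranged from -0.10 to 0.0723 without 1 library and was 0.014 without LMP1 replicate 2. That of Cd14 ranged from -1.02 to 0.84 and was negative without Lung-LMP1 replicate 2. That of Ttn was 0.0608 with the replicate block, 0.0641 with the length and GC correction, and -0.59 to 0.77 without 1 library. The cause was not tested. With 2 LMP1 libraries the spread within that group rests on 1 degree of freedom, and leaving one out assumes that the lone library varies like the other groups. Genes under about 0.239 CPM cannot be told from 0 in the shallowest library.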

Other observations

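The imprinted list, with 15 of 25 genes tested, had 2 that rose and 1 that fell (median log2 fold change -0.39, against 0.01 over all genes tested). The shares were 13.3% and 6.67%, against 6.17% and 3.95% of all genes tested. The neuroendocrine marker list had a summed level, in CPM before TMM scaling, of 1.49 to 3.86 in Lung-LMP1 organoids and 18.3 to 21.8 in LMP1 organoids. Summed ciliated cell markers were 9.95 to 11.4 CPM in Lung-LMP1 organoids and 22.5 to 38.1 CPM in LMP1 organoids, and summed airway secretory markers were 47.7, 582 and 93.8 CPM in Lung-LMP1 replicates 1, 2 and 3 and 95.3 and 72.5 CPM in LMP1 organoids.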
